A study of Mesocricetus auratus with 8 samples.

Results

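The large chaperones of the cytosol and of mitochondria were examined in hearts of golden hamsters through 9 genes: Hsph1, Hspa8, Hspa4, Dnaja1, Dnajb1, Hsp90aa1, Hsp90ab1, Hspd1 and Hspe1. They were chosen by name, as the HSP110, HSP70, HSP40 and HSP90 genes of the cytosol and the chaperonin of mitochondria. The choice was made with earlier results of these data known. They are 9 of 20360 genes in the count table. The hearts came from 8 female golden hamsters (Mesocricetus auratus) at 25 weeks of age, and polyA RNA of each heart was sequenced as 1 library. The series design describes animals carrying a Myh6 loss of heterozygosity and wild-type animals, all taken before dilated cardiomyopathy set in, and Myh6 encodes a motor protein of the sarcomere, alpha myosin. The labels give each animal a code and no genotype, so libraries M5F5, M5F55, M5F56, M5F7, M5F12, M5F16, M5F19 and M5F22 are described one by one, no genotypes are compared and no library is treated as a replicate of another.

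Chaperones of the HSP70 family bind stretches of unfolded protein and release them in a cycle driven by ATP. HSP40 proteins, named for their J domain, deliver the client and start ATP hydrolysis, while HSP110 proteins exchange the nucleotide and so end the cycle. HSP90 takes over many clients at a late stage of folding, among them kinases and steroid receptors, and in muscle it folds the myosin motor together with co-chaperones. The mitochondrial chaperonin is a barrel of HSP60, encoded by Hspd1, closed by a lid of HSP10, encoded by Hspe1. In other mammals many of these genes are switched on by heat shock factor 1 when proteins unfold, although most also have a steady level in unstressed tissue, and Hspa8 and Hsp90ab1 are the forms held to be constitutive.

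Total counts lay between 13608500 and 15255764, a ratio of 1.12. M5F19 had the largest total and M5F56 the smallest. The level of a gene is given as CPM, its count relative to the total of the library after correction by the trimmed mean of M-values (TMM), with factors from 0.960 to 1.05, and an interval after a CPM is an exact 95% Poisson interval, which covers counting error only. The labels name no molecular identifiers, and reads without them are not independent molecules. All 12 cardiomyocyte markers were measured, and among them Mb, the oxygen store myoglobin, lay between 20429 and 24787 CPM. All 9 chaperone genes had a mean count of at least 50, the level that 10909 genes reached. In bulk tissue, fewer cells of a type and less RNA per cell cannot be told apart.

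The chaperone genes together took 0.407% of the counts in M5F56 and 0.665% in M5F19, with 0.533 to 0.637% in the other 6. Of the 9 genes, 6 had their highest level in M5F19, where 16.9% of all genes tested did, and 6 had their lowest level in M5F56, where 11.2% of all genes did. The genes that did both were Hsph1, Hspa8, Dnaja1 and Hsp90ab1, 4 of the 9, beside 3.03% of all genes tested. Because the 9 genes were chosen with earlier results of these data known, these counts are a description and not an independent contrast with all genes. Counting error did not cover the differences among libraries for any of the 9 (chi-square test against equal relative abundance, largest Benjamini-Hochberg adjusted p = 1.15e-36), nor did it for 86.4% of all genes. Hsph1 and Dnajb1 spanned 2-fold or more from lowest to highest library, 2 of 9 genes, beside 13.9% of all genes, and a count this small is not set apart from that background. The median fold between the highest and the lowest library was 1.63 over the 9 genes and 1.45 over all genes tested. With the end library on each side set aside for every gene, none of the 9 spanned 2-fold (0 of 9, and 2.84% of all genes), and the median was 1.32-fold over the 9 genes and 1.25-fold over all genes.

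**Figure D1:**
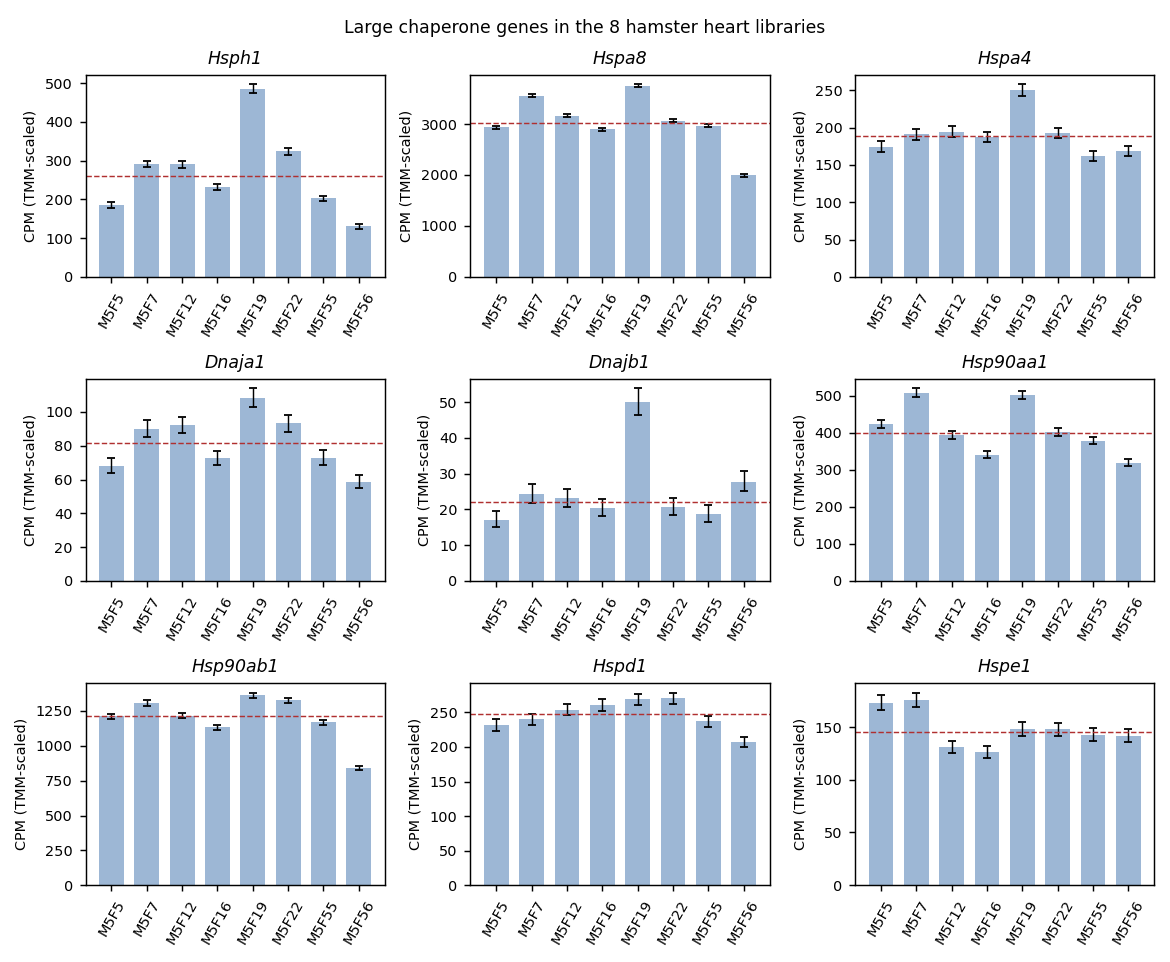
Level of each of the 9 chaperone genes (y axis, TMM-scaled CPM, from 0) in each of the 8 libraries (x axis); bars are single libraries, error bars exact 95% Poisson intervals of the count and the dashed line the median of the 8. M5F19 is highest in 6 panels and M5F56 lowest in 6, while Dnajb1 is second highest in M5F56 at 27.8 CPM and Hspe1 is highest in M5F5 and M5F7.

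Hsph1 encodes the inducible HSP110, a nucleotide exchange factor of HSP70 that also holds unfolded protein in solution. Its level was 486 CPM in M5F19 (474 to 497), 324 in M5F22, 291 in M5F7, 290.0 in M5F12, 232 in M5F16, 202 in M5F55, 185 in M5F5 and 130.2 in M5F56 (124 to 136). M5F19 stood 1.50-fold above the next library and M5F56 stood 1.42-fold below the next, with the other 6 spread between them. The fold between the ends was 3.73, wider than for 98.7% of all genes tested, and 1.75 with the end library on each side set aside, wider than for 93.9%. It was 2.49 without M5F19, 2.63 without M5F56 and 1.75 without both.

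Hspa4 encodes a further cytosolic HSP110-type protein, less dependent on heat shock in other mammals. It was at 250.1 CPM in M5F19 (242 to 258), 194 in M5F12, 193 in M5F22, 191 in M5F7, 188 in M5F16, 175 in M5F5, 169 in M5F56 and 162 in M5F55 (155 to 168). M5F19 alone stood off, 1.29-fold above the next library, and the intervals of 6 of the 7 pairs of neighbours in this order overlapped. The fold of 1.55 between the ends was 1.20 without M5F19. M5F56 was second lowest, with an interval (162 to 176) that overlapped that of M5F55.

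Hspa8, the constitutive HSP70 that also uncoats clathrin vesicles, was read 28432 to 54971 times per library. Its level was 3753 CPM in M5F19, 3561 in M5F7, 3162 in M5F12, 3063 in M5F22, 2969 in M5F55, 2939 in M5F5, 2896 in M5F16 and 1992 in M5F56 (1969 to 2015). The low value of M5F56 made most of the range: the next library was 1.45-fold higher, and the fold of 1.88 between the ends was 1.30 without M5F56 and 1.79 without M5F19. With the end library on each side set aside the fold was 1.23, below the median of 1.25 of all genes. In other mammals Hspa8, Hsp90ab1, Hspd1 and Hspe1 have many processed pseudogenes, and how reads shared with such copies were counted is not given in the sources used here, so their levels are uncertain to that extent.

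Dnaja1 and Dnajb1 encode J-domain partners of HSP70, of type I and type II. Dnaja1 was at 108 CPM in M5F19 (103 to 114), 93.2 in M5F22, 92.2 in M5F12, 90.0 in M5F7, 72.9 in M5F55, 72.6 in M5F16, 68.3 in M5F5 and 58.9 in M5F56 (54.9 to 63.0). Its order of libraries was close to that of Hsph1, with M5F7, M5F12 and M5F22 near each other in the upper part and their intervals overlapping. The fold between the ends was 1.84.

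Dnajb1 had another pattern. It was at 50.1 CPM in M5F19 (46.6 to 53.9), 27.8 in M5F56 (25.1 to 30.7), 24.3 in M5F7, 23.2 in M5F12, 20.8 in M5F22, 20.5 in M5F16, 18.8 in M5F55 and 17.1 in M5F5. M5F19 stood 1.80-fold above the next library, and M5F56, lowest for 6 of the chaperone genes, came second. The fold between the ends was 2.92, wider than for 96.9% of all genes, but 1.62 without M5F19. Dnajb1 had the fewest counts of the 9 genes, 240 to 734 per library.

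The HSP90 pair differed in which libraries stood out. Hsp90aa1, the inducible form, was highest in M5F7 at 508 CPM (497 to 520.1) and M5F19 at 502 (491 to 514), whose intervals overlapped. M5F5 followed at 424 CPM, M5F22 at 402, M5F12 at 395, M5F55 at 379, M5F16 at 341 and M5F56 at 319 (309.9 to 328). Its fold was 1.59 between the ends and 1.47 with the end library on each side set aside, so its range did not rest on 1 library at each end. The fold of 1.47 was wider than for 81.5% of all genes.

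Hsp90ab1, the constitutive form, was at 1363 CPM in M5F19, 1327 in M5F22, 1308 in M5F7, 1215 in M5F12, 1211 in M5F5, 1170.4 in M5F55, 1132 in M5F16 and 838 in M5F56 (823 to 853). The 7 libraries other than M5F56 lay within 1.20-fold of each other, and M5F56 was 1.35-fold below the lowest of them. Hspa8 and Hsp90ab1 thus shared a deficit in M5F56 as their main difference among libraries.

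The chaperonin genes had the narrowest folds of the 9 between the ends, and they did not follow each other. Hspd1 was at 270.2 CPM in M5F22 and 269 in M5F19, followed by 261 in M5F16, 254 in M5F12, 240.2 in M5F7, 237 in M5F55, 232 in M5F5 and 207 in M5F56 (199 to 214). Its fold of 1.31 between the ends was narrower than the median of all genes. Hspe1 was at 176 CPM in M5F7 (169 to 183) and 173 in M5F5 (166 to 180.2), followed by 148 in M5F19 and in M5F22, 143 in M5F55, 142 in M5F56, 131 in M5F12 and 126 in M5F16 (121 to 132). The fold of Hspe1 was 1.39 between the ends. With the end library on each side set aside it was still 1.32, wider than for 63.6% of all genes. M5F7 and M5F5 lay apart from the other 6, and M5F16 and M5F12, in the upper part for Hspd1, were lowest for Hspe1.

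**Figure D2:**
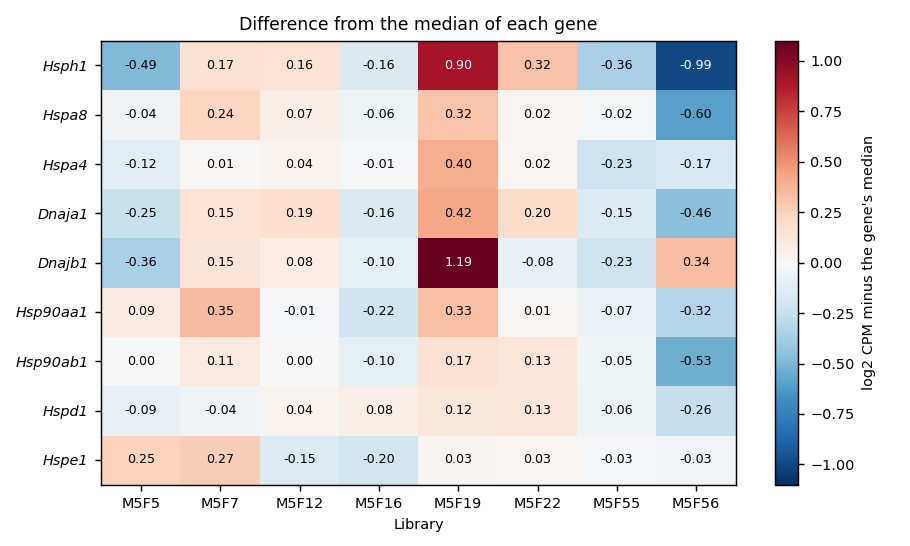
Difference of each library from the gene's own median, as log2 CPM minus the median log2 CPM of the 8 libraries (colour and printed value), for the 9 chaperone genes (rows) in the 8 libraries (columns). M5F19 is at or above the median in all 9 rows, from 0.03 for Hspe1 to 1.19 for Dnajb1; M5F56 is below it in 8 rows, down to -0.99 for Hsph1, and above it for Dnajb1 at 0.34.

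Averaged over the 9 genes, the difference from the gene's median on the log2 CPM scale was 0.43 in M5F19, 0.16 in M5F7, 0.088 in M5F22, 0.046 in M5F12, -0.10 in M5F16, -0.11 in M5F5, -0.13 in M5F55 and -0.34 in M5F56. This average is called the chaperone profile below. It spanned 0.77 between M5F19 and M5F56, and 0.64 when counts were scaled by plain totals. With plain totals 6 of the 9 genes were again highest in M5F19 and 6 lowest in M5F56, beside 9.66% and 5.98% of all genes, and with DESeq2 size factors 7 and 6 were, beside 18.2% and 11.2%. M5F19 and M5F56 are also the libraries with the largest and the smallest total count, and the part of this in the profile was not tested. M5F19 also had the lowest TMM factor (0.960) and M5F56 the highest (1.05), and the values with plain totals are those without these factors.

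Counts of partner genes were set against each other within a library, which needs no scaling between libraries. No correction for transcript length was made, so a share describes how a balance shifts between libraries and not which gene is more abundant. Shares carry exact 95% Clopper-Pearson intervals, again for counting error only. Of the counts of Hspa4 plus Hsph1, Hspa4 held 34.0% in M5F19 (33.1 to 34.9), 37.3% in M5F22, 39.6% in M5F7, 40.1% in M5F12, 44.4% in M5F55, 44.7% in M5F16, 48.6% in M5F5 and 56.5% in M5F56. M5F56 was the library in which Hspa4 had more counts than Hsph1, and its ratio of Hspa4 to Hsph1 was 2.52-fold that of M5F19. Dnajb1 held 1.38% of the counts of Dnajb1 plus Hspa8 in M5F56 (1.25 to 1.52) and 1.32% in M5F19 (1.22 to 1.42), against 0.580 to 0.729% in the other 6. Those libraries are the ends of the chaperone profile and stood together here: in M5F19 the Dnajb1 count was high, and in M5F56 the Hspa8 count was low while that of Dnajb1 was not.

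Hspd1 held 57.2% of the counts of Hspd1 plus Hspe1 in M5F5 (55.9 to 58.5), 57.7% in M5F7 and 59.3% in M5F56, and 62.4 to 67.3% in the other 5, with the highest share in M5F16 (66.1 to 68.5). For Hsp90aa1 in the HSP90 pair the share ran from 23.2% in M5F16 (22.6 to 23.7) to 28.0% in M5F7 (27.5 to 28.5). M5F56, M5F19 and M5F5 followed at 27.6, 26.9 and 26.0%, and the other 4 libraries lay at 23.2 to 24.5%. Dnaja1 held 2.27% of Dnaja1 plus Hspa8 counts in M5F5 (2.13 to 2.42) and 2.95% in M5F22 (2.80 to 3.11), a narrower shift than that of Dnajb1.

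**Figure D3:**
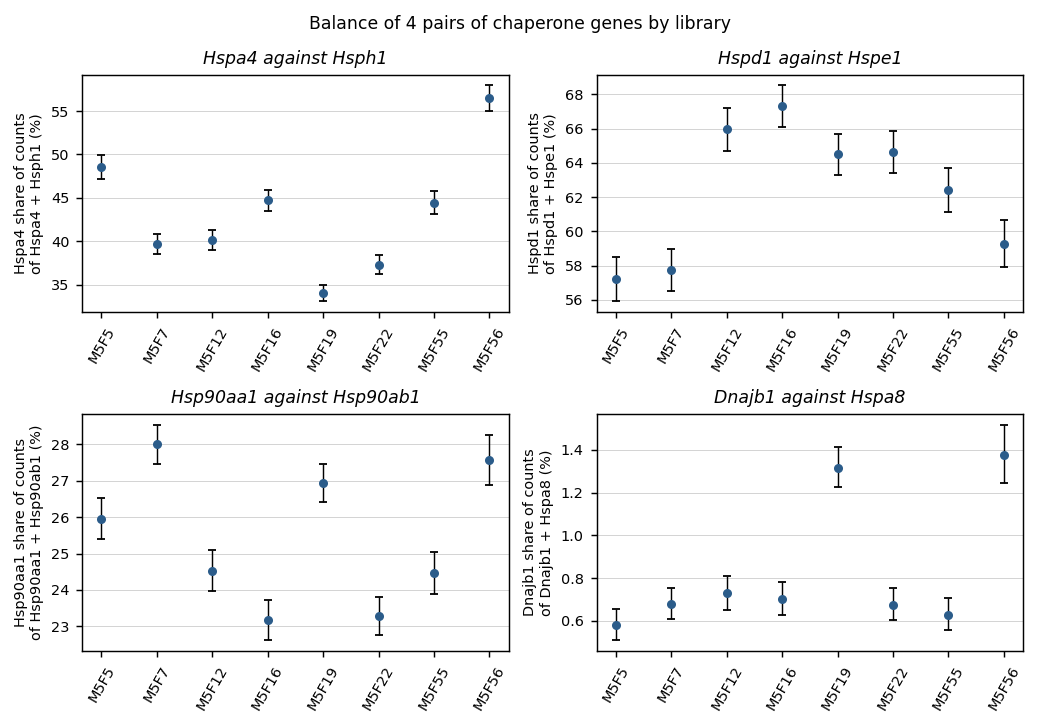
Share of the first gene in the summed counts of 4 pairs of chaperone genes (y axis, percent; the axes do not start at 0) in each of the 8 libraries (x axis), with exact 95% Clopper-Pearson intervals. Hspa4 against Hsph1 runs from 34.0% in M5F19 to 56.5% in M5F56, and Dnajb1 against Hspa8 is 1.32% in M5F19 and 1.38% in M5F56 but at most 0.729% elsewhere.

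Correlations of log2 CPM over the 8 libraries are given as a description. The points share libraries, depth and scaling, and the genes were chosen with earlier results of these data known. Of the 36 pairs of chaperone genes, 14 (38.9%) had a Pearson's r of at least 0.8, beside 2.82% of all pairs of genes tested, and the median r was 0.67. Without M5F19 and M5F56 the median was 0.55 and 6 pairs reached 0.8. The share of all pairs of genes was not taken without these libraries, so the 2.82% is no background for those 6 pairs. Hsph1 and Dnaja1 were most alike, with r = 0.98 and Spearman's rho = 0.95, and r = 0.97 without M5F19 and M5F56. Among 10908 other genes Hsph1 ranked first in likeness to Dnaja1, and Dnaja1 second in likeness to Hsph1. Hspa8 and Hsp90ab1 had r = 0.96 and rho = 0.90, and r = 0.67 without M5F56 and M5F19, the libraries farthest from the Hspa8 median.

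**Figure D4:**
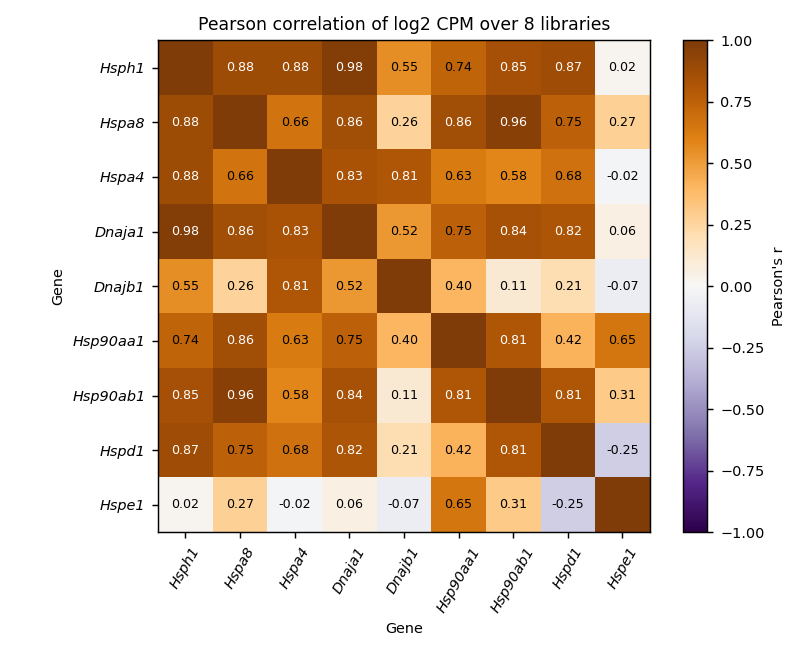
Pearson's r of log2 CPM over the 8 libraries for each pair of the 9 chaperone genes (rows and columns, colour and printed value). Hsph1, Hspa8, Dnaja1 and Hsp90ab1 have r of 0.84 or more with each other, and the row of Hspe1 lies between -0.25 and 0.65.

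Over all 8 libraries Dnajb1 and Hspe1 stood outside this block. That split rested on M5F19 and M5F56. Of the 21 pairs among the other 7 genes, 13 had r of at least 0.8, and 3 did without these libraries. For Dnajb1 the highest r was 0.81, with Hspa4 (rho = 0.52), and it was -0.088 without M5F19 and M5F55, the libraries farthest from the Hspa4 median, but 0.74 without M5F19 and M5F56. The value thus depended on which libraries were left out. With Hsph1 the r of Dnajb1 was 0.55 over all 8 libraries and 0.83 without M5F19 and M5F56. With Dnaja1 these values were 0.52 and 0.83, with Hspa8 0.26 and 0.80, and with Hsp90aa1 0.40 and 0.39. They were 0.11 and 0.44 with Hsp90ab1, and 0.21 and 0.38 with Hspd1. M5F56 was lowest for Hsph1 and second highest for Dnajb1. Hspe1 had r = -0.25 and rho = -0.071 with its partner Hspd1, and r = -0.63 without M5F56 and M5F22. Its closest chaperone was Hsp90aa1, with r = 0.65 and rho = 0.86, and r = 0.58 without M5F7 and M5F19. Without M5F19 and M5F56 the r of Hspe1 was 0.86 with Hsp90aa1 and -0.62 with Hspd1. Each gene against the profile of the other 8 gave r = 0.95 for Hsph1, 0.94 for Dnaja1, 0.88 for Hspa4, 0.85 for Hspa8, 0.82 for Hsp90aa1, 0.80 for Hsp90ab1, 0.71 for Hspd1, 0.46 for Dnajb1 and 0.13 for Hspe1.

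The 12 genes outside the set that were most like the chaperone profile had r from 0.95 to 0.98. All 12 had their highest level in M5F19 and their lowest in M5F56, beside 3.03% of all genes tested. The 12 were picked for likeness to a profile with these libraries at its ends, so this is not a separate result. Of them, 4 are other chaperones, a share of 33.3% beside 1.06% of the 10900 genes ranked (116 genes of the chaperone lists), and are given here with their fold between the ends: Hspa1l (5.74), an HSP70 gene, Hspb1 (5.01), the small heat shock protein HSP27, Dnajb5 (3.09) and Dnaja4 (1.80), both J-domain genes. The chaperone lists were chosen with earlier results of these data known, so the 33.3% is a description. Hspa1l was at 362 CPM in M5F19, 173 in M5F7, 137 in M5F22, 119 in M5F12, 106 in M5F55, 96.9 in M5F5, 86.7 in M5F16 and 63.0 in M5F56. No row was matched by symbol to its close relatives in sequence, Hspa1a and Hspa1b, so which of these genes its reads came from is uncertain. The other 8 were Rdh10, a retinol dehydrogenase, Smpd1, the acid sphingomyelinase, Phlpp2, a phosphatase of Akt, Arid5a, an RNA-binding regulator of inflammatory transcripts, Dusp27, Rnf4, a ubiquitin ligase of sumoylated proteins, Gfm1, a mitochondrial elongation factor, and Prmt2, an arginine methyltransferase. Arid5a had the widest fold, 10.4, with 46.3 CPM in M5F19 and 4.41 in M5F56. Gfm1 had the narrowest, 1.19, with 485 CPM in M5F19 and 406 in M5F56. The r of the 12 was 0.75 to 0.95 without M5F19 and M5F56, and with those libraries left out 1 of the 12 stayed among the 12 most alike.

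Taken gene by gene, the closest patterns differed. For Hsp90aa1 the closest gene was Ahsa1 (r = 0.96), the co-chaperone that stimulates its ATPase, at 112 CPM in M5F19, 106 in M5F7 and 82.2 in M5F16 and M5F56. Plod1, a collagen lysyl hydroxylase, and Itga5, an integrin subunit, followed with r = 0.95 and 0.94. Hsp90ab1 was closest to Tpp1, a lysosomal peptidase (r = 0.98), P4ha1, a collagen prolyl hydroxylase (r = 0.98), and Fkbp5, a co-chaperone of steroid receptors (r = 0.96). Fkbp5 was at 6.24 CPM in M5F56 and 23.2 to 53.5 in the other 7, and its r to Hsp90ab1 was 0.75 without M5F56 and M5F19. Hspa8 was closest to Ndel1 (r = 0.98), Eif2d (r = 0.98) and P4ha2 (r = 0.97), a relative of P4ha1.

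Hspe1 was closest to Ube2m, an enzyme of neddylation (r = 0.99), Ndufa13, a subunit of respiratory complex I (r = 0.98), and the unnamed identifier LOC101834557 (r = 0.97). Ndufa13 was at 459.6 CPM in M5F7 and 432 in M5F5 but at 284 to 358 in the other 6, the same split as Hspe1. Hspd1 was closest to Fry, Foxo3, a transcription factor of the insulin pathway, and Rhobtb1, each with r = 0.99. Foxo3 had 213 CPM in M5F22 and in M5F19, against 111 in M5F56. Hsph1 was closest to Gfm1 and, after Dnaja1, to Phlpp2 (r = 0.98 each). Next to Hsph1, Dnaja1 was closest to Znf322 and Gfm1 (r = 0.96 each). Hspa4 was closest to Dffa, an inhibitor of the apoptotic nuclease (r = 0.97), Tp53inp2 and Smco3 (r = 0.96 each). Dnajb1 was closest to Ctps1, a CTP synthase (r = 0.97), Gatad2a and Nuak1 (r = 0.95 each), and the r of these 3 was 0.49 to 0.77 without M5F19 and M5F5.

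Hspd1 and Hspe1 share a promoter region in other mammals, where they lie head to head. In the gene table used for names, Hspd1 lies between Coq10b and the unnamed identifier LOC101843965, and Hspe1 is not listed under its symbol. LOC101843965 was at 69.8 to 85.6 CPM, with r = 0.019 to Hspd1 and -0.53 to Hspe1, and which gene it is was not settled here. It was picked out after its place was seen.

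Other genes of the chaperone network were taken as lists, each set beside the 13.9% of all genes that spanned 2-fold or more and the median of 1.45-fold. Counts by library stand beside the 16.9% of all genes that were highest in M5F19, the 11.2% that were lowest in M5F56 and the 9.26% that were highest in M5F12. Of 26 measured co-chaperones of HSP90 and HSP70, 2 spanned 2-fold, with a median fold of 1.42, while 11 peaked in M5F19 and 6 were lowest in M5F56. Those that spanned 2-fold were Fkbp5 (8.53) and Smyd1 (3.13), the muscle methyltransferase that works with HSP90 on myosin. Smyd1 was at 101 CPM in M5F19, 83.4 in M5F16 and 80.6 in M5F12 but at 32.3 in M5F7 and 33.6 in M5F5, an order unlike that of the chaperone profile (r = 0.36). Unc45b, the myosin chaperone of striated muscle, was highest in M5F19 at 503 CPM and lowest in M5F7 at 318. Stip1, which bridges HSP70 and HSP90, had 392 CPM in M5F19 against 209 in M5F56 (r = 0.94 to the profile). Fkbp4 ran from 285 to 349 CPM and Bag6 from 378 to 461.

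Of 33 measured J-domain genes other than Dnaja1 and Dnajb1, 3 spanned 2-fold (Dnajb5, Dnajc16 and Dnajc18), with a median fold of 1.28, while 13 peaked in M5F19 and 6 were lowest in M5F56. Dnajb5 reached 246 CPM in M5F19 against 79.8 in M5F56, and Dnajb4 458 against 265. Dnajc16 and Dnajc18 were lowest in M5F5, at 10.1 and 11.4 CPM. Dnaja2, a type I relative of Dnaja1, ran from 205 to 222 CPM and Dnaja3, its mitochondrial counterpart, from 214 to 242. Of 9 other measured HSP70 and HSP110 genes, 2 spanned 2-fold, Hspa1l and Hspa13, with a median fold of 1.81, while 2 peaked in M5F19 and 3 were lowest in M5F56. Some genes are in more than 1 list, such as Hspa5 and Hyou1 (also endoplasmic reticulum) and Hspa9 (also mitochondria).

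Of 8 small heat shock genes with Bag3, Hspb1 spanned 2-fold (1 of 8), and the median fold was 1.46, while 4 peaked in M5F19 and 4 were lowest in M5F56. Hspb1 was at 365 CPM in M5F19, 238 in M5F7 and 72.7 in M5F56. Cryab, the abundant alpha-B crystallin, was highest in M5F5 at 5017 CPM and M5F7 at 4842, and lowest in M5F16 at 3437. Hspb6 was highest in M5F5 at 4235 CPM and lowest in M5F56 at 2881.

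Folding genes of mitochondria and of the cytosolic chaperonin had narrower ranges at the median. None of 17 measured genes of other mitochondrial chaperones and proteases spanned 2-fold (0 of 17), with a median fold of 1.21. Of the 17, 3 peaked in M5F19 and 2 were lowest in M5F56. Hspa9, the mitochondrial HSP70, ran from 1059.7 CPM in M5F5 to 1122 in M5F16, a fold of 1.06, and Lonp1, a matrix protease, from 230.0 to 273. None of 15 measured genes of the cytosolic chaperonin TRiC and prefoldin spanned 2-fold (0 of 15), with a median of 1.27. Of the 15, 4 peaked in M5F19 and 3 were lowest in M5F56. Cct7 ran from 240.3 to 303 CPM and Cct8 from 207 to 240.2.

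Of 15 measured chaperones of the endoplasmic reticulum, 12 were lowest in M5F56, 8 were highest in M5F12 and 2 were highest in M5F19. The 3 that spanned 2-fold were Manf, Creld2 and Pdia4, and the median fold was 1.55. Hspa5, the HSP70 of this compartment, reached 1009.6 CPM in M5F12, 840.4 in M5F19 and 539 in M5F56, and Hsp90b1, its HSP90, reached 794 in M5F12, 697 in M5F19 and 449.6 in M5F56. Like Hspa8 and Hsp90ab1 of the cytosol, both were lowest in M5F56, but their highest level was not in M5F19.

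**Figure D5:**
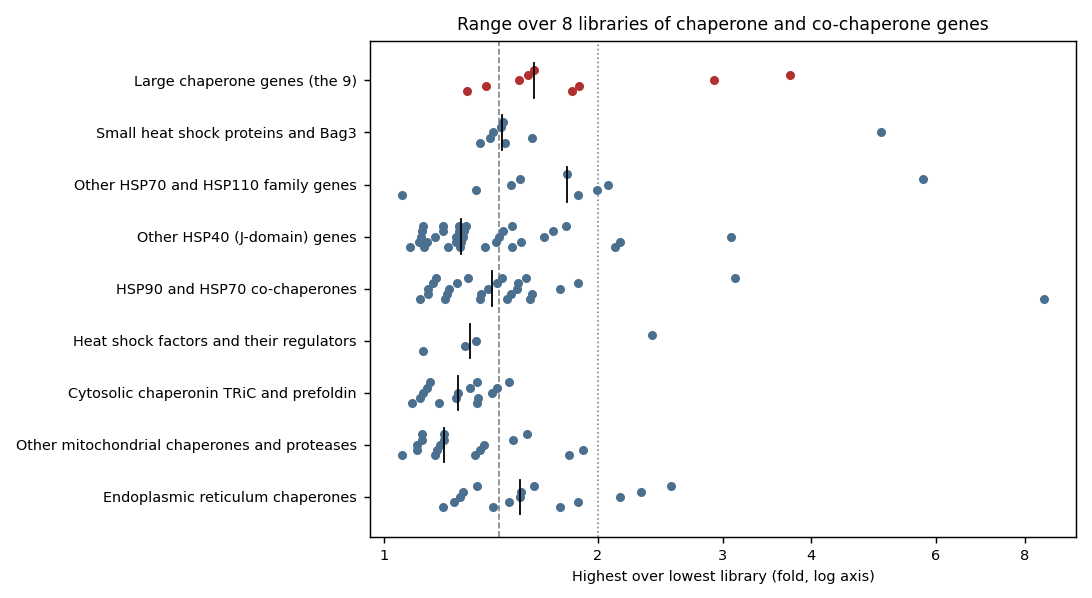
Fold between the highest and the lowest of the 8 libraries (x axis, log scale) for the 9 large chaperone genes (top row) and for 8 lists of related genes (rows below); points are genes, black bars list medians, the dashed line the median of all genes tested at 1.45 and the dotted line 2-fold. Hsph1 (3.73) and Dnajb1 (2.92) lie to the right of 2-fold, as do Fkbp5 (8.53), Hspa1l (5.74) and Hspb1 (5.01) among the related genes.

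Of the heat shock factors, none was highest in M5F19 or lowest in M5F56. Hsf1, the main activator of the heat shock response, ran from 24.1 CPM in M5F12 to 31.3 in M5F5 with 29.7 in M5F19 and 24.7 in M5F56, and its r to the chaperone profile was 0.38. Hsf2 ran from 37.3 to 50.3 CPM. Hsf4 was lowest in M5F19 at 2.80 CPM and highest in M5F56 at 6.73 (r = -0.79), the single one of 4 measured genes of that list to span 2-fold. Messenger level does not report the activity of these factors. The 3 cold-inducible RNA-binding genes were lower in M5F19 than in M5F56: Cirbp had 24.7 CPM in M5F19 against 44.5 in M5F56 (r = -0.91 to the profile), Rbm3 29.8 against 49.5 (r = -0.55) and Srsf5 68.9 against 117 (r = -0.55). None of them spanned 2-fold (0 of 3), and none had M5F19 and M5F56 as its 2 ends. Cirbp was highest in M5F5, Rbm3 was lowest in M5F16 and Srsf5 was highest in M5F7. Ranked from the highest r to the profile, Cirbp, Rbm3 and Srsf5 were at 10884, 9894 and 9840 of 10900 genes. The share of all genes that were lower in M5F19 than in M5F56 was not taken.

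Other programs were measured beside the chaperones. The 22 immediate early genes, which respond within minutes to stress and handling, summed to 1633 CPM in M5F19, the highest, and 581 in M5F56, the lowest. Of 18 measured, 9 were highest in M5F19, 3 lowest in M5F56 and 12 spanned 2-fold, with a median fold of 2.36. Atf3, a transcription factor induced by stress, reached 273 CPM in M5F19 and 8.69 CPM in M5F56 (r = 0.93 to the profile). For Ier5, which promotes heat shock factor activity, the levels were 337 and 26.3 CPM (r = 0.93). For Jun, also a transcription factor, they were 168 and 75.2 CPM (r = 0.82). The genes of the list did not all follow the chaperone profile: of the 18, 5 had r of at least 0.8 to it and 6 had r below 0, among them Myc (-0.091) and Klf6 (-0.076). Among the 10900 genes ranked by r to the profile, the lowest of those 5, Jun, was at rank 152. The highest of those 6, Klf4 (r = -0.022), was at rank 5673, so an r below 0 was common among all genes. Atf3, Ier5 and Btg2 summed to 891 CPM in M5F19 and 63.7 in M5F56, and the other 15 measured genes to 737 and 515. The part of immediate early genes in the chaperone result was not tested.

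Summed levels of markers of the cells of the heart did not place M5F19 and M5F56 at opposite ends, and the most abundant genes dominate such sums. Among single markers with a mean count of at least 50, only Dcn had these libraries at its ends, with 415 CPM in M5F19 and 523 in M5F56. The summed level of 12 cardiomyocyte markers was 111359 CPM in M5F19 and 106761 in M5F56, within a range of 98552 to 118753. The 12 endothelial markers summed to 1375 CPM in M5F19, the lowest, and 1600.4 in M5F56, with 2279.9 in M5F7. For 11 fibroblast markers the sums were 2189 and 2209 CPM (1871 to 2299.98 over all 8), for 9 smooth muscle and pericyte markers 1464 and 1450.5 (1238 to 1759), for 9 macrophage markers 105 and 106 (73.1 to 146), and for 3 red blood cell markers 29.1 and 29.2 (11.4 to 34.4). The part of these marker levels in the chaperone results was not tested.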

How the data were processed

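RNA of 8 hearts was sequenced after polyA selection, per the labels' protocols: Trizol extraction, selection, fragmentation and adaptor ligation. The authors deposited 1 table of counts per gene. The submitters' processing notes name HISAT2 2.0.4, Bowtie2 2.2.5 and RSEM without role or order. Genome build, annotation and any rounding of RSEM estimates: not given in the sources used here. All 8 sample columns were used. Of 4676 identifiers starting with LOC, 397 were given a symbol from RefSeq (assembly BCM_Maur_2.0), which was used for names and neighbours. It lists 8 of the 9 genes by symbol. Transcript lengths were not used, so levels are not compared between genes.

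Counts were scaled with TMM factors (edgeR 4.0.16 in R 4.3.3), and 0.5 was added before log2. Genes whose mean count reached 50 were tested by a chi-square test (7 degrees of freedom) with Benjamini-Hochberg adjustment over all of them. A gene spans 2-fold where the highest library is at least 2-fold the lowest and the adjusted p is under 0.05. That test compares these libraries with counting error, not conditions. Intervals are exact at 95%. A count of 0 would allow up to 3 counts, 0.199 to 0.214 CPM.

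Named genes are the 9 chaperones, from each of 17 lists (235 genes) the up to 6 widest past 2-fold and the 4 most abundant, the 12 genes most like the chaperone profile and the 3 most like each chaperone. The members and lists were chosen with earlier results of these data known. The computation was tested on simulated data. Alternatives were DESeq2 1.42.0 size factors, plain totals, a mean count of at least 500 or no filter, a prior of 5, Spearman's rho, and leaving out libraries. Python 3.11.15 with numpy 2.4.6, pandas 2.3.3 and scipy 1.17.1 was used.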

Additional observations from a re-analysis of the deposited data

How the results depend on the processing

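No paired analysis was possible because the labels put the libraries in no groups. With M5F19 and M5F56 left out together, an alternative chosen after seeing the data, 0 of the 9 genes spanned 2-fold instead of 2, the median fold between the ends was 1.37 instead of 1.63, the chaperone profile spanned 0.29 instead of 0.77 on the log2 scale, the median log2 range of the partner ratios was 0.39 instead of 0.62, the median correlation of the pairs was 0.55 instead of 0.67, and 1 of the 12 genes most like the profile was retained. Leaving out 1 library at a time gave 1 (without M5F19) to 2 genes past 2-fold, a median fold of 1.49 to 1.65, a profile span of 0.49 (without M5F19) to 0.79, a median log2 ratio range of 0.53 to 0.62, a median correlation of 0.58 to 0.73, 4 (without M5F19) to 10 of the 12 genes, and 33 to 40 genes of the lists past 2-fold instead of 41. Plain totals gave a median correlation of 0.56 and a median fold of 1.51. Spearman's rho gave a median of 0.61 and 4 of the 12 genes. Where a mean count of 500 was asked for, 18 genes of the lists spanned 2-fold, since fewer were tested. The other 92 of these summary values stayed within the set limits, which were wide for some. For the profile span the limit asked only that M5F19 and M5F56 stay its ends. With plain totals the span was 0.64 and 8 of the 12 genes were retained, and both passed as unmoved. Single pairs could change sign: Hspa8 and Hspd1 had r = 0.75 over all libraries and -0.12 without M5F19 and M5F56, and Hsp90aa1 and Hspd1 0.42 and -0.43. Depth limits the order of libraries for Hspa4, Dnajb1, Hspd1 and Hspe1, where the intervals of 6 of 7 neighbouring pairs overlapped.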
